A study of Mus musculus with 2 samples.

Results

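The clustered protocadherin genes of mouse chromosome 18 were chosen by name, as the genes of GENCODE M21 (GRCm38) on that chromosome called Pcdha, Pcdhb or Pcdhg. This gave 58 genes of 21939 genes with a window, 14 in the alpha set, 22 in the beta set and 22 in the gamma set. Of the 58 genes, 5 are C-type genes (Pcdhac1, Pcdhac2, Pcdhgc3, Pcdhgc4 and Pcdhgc5), and the other 53 are called alternate genes below. The value of a gene was its CG methylation level over its first exon with 1 kb upstream, that is, methylated calls as a percentage of all calls on the CG cytosines of that window.

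The methylation of CG cytosines was read by whole-genome bisulfite sequencing in primary osteoblasts, the bone-forming cells, taken from 3-day-old mice and cultured. The WT library came from C57BL/6 control mice, and the TCKO library from mice of the same background that carried Prx1-Cre with Tet1fl/fl, with Tet2fl/fl and with Tet3fl/fl. Cre is made from the Prx1 promoter, which is active in mesenchyme of the limb and part of the skull and not in all cells that a culture can hold. There was 1 library per genotype, and whether animals were pooled is not given in the labels. Each test below therefore compares these 2 libraries and not the genotypes. Its p-value and the 95% intervals treat each call as independent and hold no spread between animals. Several calls can come from 1 read, so p-values can be too small and intervals too narrow even for counting error. Where a level is 0%, the upper end of its interval is the level that the depth still allows.

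Clustered protocadherins are cadherin-like proteins of the cell surface, known best in neurons, where each cell makes its own combination of them and uses it to tell its own processes from those of its neighbours. Each alpha or gamma gene is a variable first exon with a promoter of its own, which is spliced to 3 constant exons shared by the set, whereas each beta gene is complete without such exons. The choice among alternate promoters is made at random in each cell, and CTCF, cohesin, the DNA methyltransferase DNMT3B and the chromatin protein SMCHD1 take part in it. The C-type genes follow other rules and are often transcribed from both chromosomes. TET enzymes oxidise 5mC to 5hmC, a step of DNA demethylation, and bisulfite reads do not tell these marks apart.

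In all, 261127589 calls were made in WT and 223645082 in TCKO, or 5.97 and 5.11 for each CG cytosine of GRCm38. Over all calls the level was 70.2% in WT and 76.3% in TCKO, and on chromosome 18 it was 71.2% and 78.2%. The TCKO library held 1 call against 62 in WT on exon 11 of Tet1, 0 against 7 on exon 9 of Tet2, and 0 against 14 on exon 9 of Tet3. Exons 1 and 3 of Tet3 also had 0 calls in TCKO, against 6 and 8 in WT. The labels do not name the deleted exons, and most of these counts are small. Among markers fixed for cell types, the median level in WT was 17.6% over 7 osteoblast genes, 73.8% over 4 blood genes, 69.1% over 3 endothelial genes, 45.6% over 3 skeletal muscle genes and 29.0% over 4 genes of neurons and glia. These are levels of first exons with 1 kb upstream, and expression was not analysed here. In TCKO the medians were 33.0%, 81.2%, 76.9%, 52.9% and 37.4% in the same order, and the part of other cell types in the values below was not tested.

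The protocadherin windows were methylated to an intermediate level as a class. The median level of the 58 genes was 49.6% in WT and 50.9% in TCKO, against 30.8% and 36.9% over the 21303 genes tested. Over the 455 other genes with a first exon of at least 2 kb the medians were like those of the members, at 48.1% and 51.8%. Those genes were spread more widely, with quartiles of 22.7% and 68.0% in WT, against 44.4% and 55.3% for the members. In WT, 46 of the 58 genes lay between 40% and 60%, and in TCKO 45 did. The alternate genes ranged from 29.8% (Pcdhb8) to 68.4% (Pcdhb22) in WT and from 37.6% (Pcdha12) to 63.5% (Pcdhb6) in TCKO. All 58 genes passed the minimum of 20 calls in each library. Their depth ran from 151 to 1910 calls in WT and from 261 to 1326 calls in TCKO, so that a gene of median depth had 787.5 calls in WT and 660 in TCKO.

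**Figure D1:**
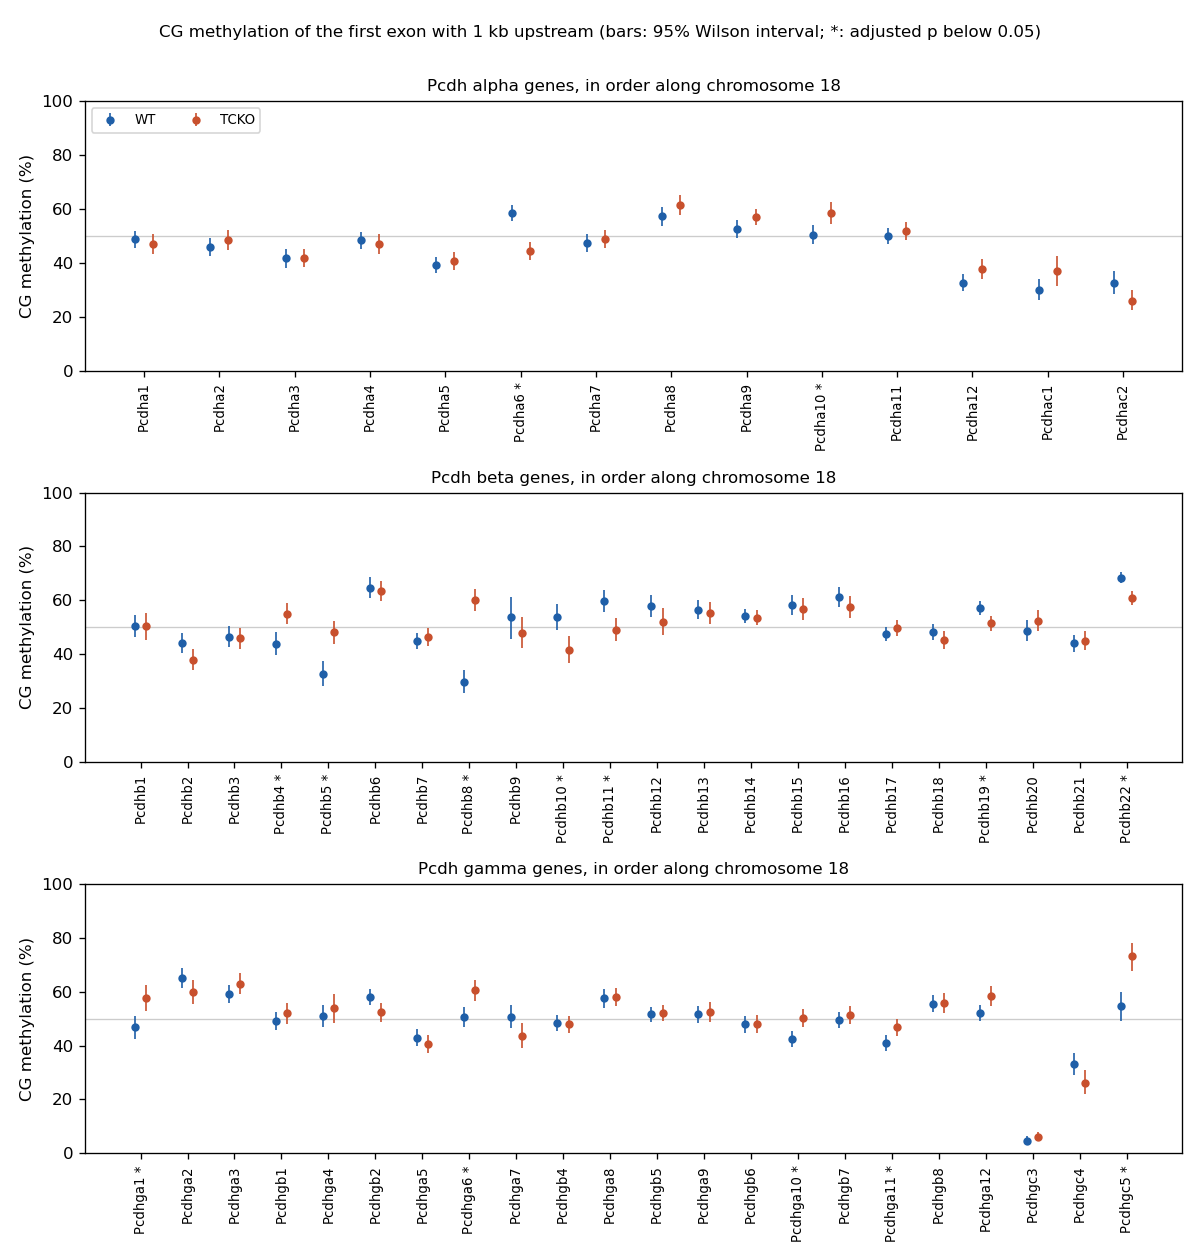
CG methylation level (%) of the first exon with 1 kb upstream for each of the 58 genes, in order along chromosome 18, in WT (blue) and TCKO (orange). Bars are 95% Wilson intervals, and an asterisk marks an adjusted p below 0.05. Most genes lie near 50% in both libraries, while Pcdhgc3 stands near 5% and Pcdhb8 and Pcdhgc5 are higher in TCKO.

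The gain in methylation that ran through the TCKO library was small or missing over these genes. The median difference, TCKO minus WT, was 0.447 percentage points over the 58 genes and 2.57 points over all genes tested. Pooled over all windows the level was 49.7% in WT and 49.9% in TCKO. The level was higher in TCKO for 33 genes and lower for 25, and it moved by less than 10 points in 50 genes and by less than 5 points in 33. By the 2-sided Fisher's exact test with Benjamini-Hochberg adjustment over all genes tested, 9 members (15.5%) were called higher in TCKO, where 17.7% of all genes tested were. A further 5 members were called lower in TCKO, where 2.31% of all genes tested were, and 44 were not called. With a minimum difference of 20 points added to the test, 1 member (Pcdhb8) was called higher, against 6.64% of all genes tested, and 0 were called lower, against 0.793%.

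The counts depended on which cytosines were compared. Depth was uneven along the windows, so the calls were also compared cytosine by cytosine, over the cytosines that both libraries covered, by an exact test stratified by cytosine. This comparison was added after the values had been seen. It called 6 members higher, against 15.2% of all genes, and 5 lower, against 0.564%, and 7 of the 14 calls made with pooled calls held in it. The 1 kb upstream alone gave 2 members called higher (15.3% of all genes) and 1 lower (1.31%), the first exon alone 5 (3.82%) and 2 (0.552%), and the 500 bp on either side of the start 3 (8.44%) and 1 (0.727%).

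First exons of the clusters are long and well covered, which makes small differences easier to call, so genes of like length and of like level were set beside them. Both comparison groups were chosen after the values had been seen. Of 455 other genes with a first exon of at least 2 kb, 31.2% were called higher and 3.96% lower, with a median difference of 3.60 points. Of 3656 other genes with a mean level of 40% to 60%, 22.1% were called higher and 4.05% lower, with a median difference of 4.53 points. Windows of this group were shallower, with medians of 151 calls in WT and 122 in TCKO against 787.5 and 660 for the members. Among the 453 other genes tested on chromosome 18, 24.5% were called higher and 2.21% lower. The members' share called higher was thus below that of each of these groups, and their share called lower, 5 of 58, was above it. These shares are a description and were not tested against each other.

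**Figure D2:**
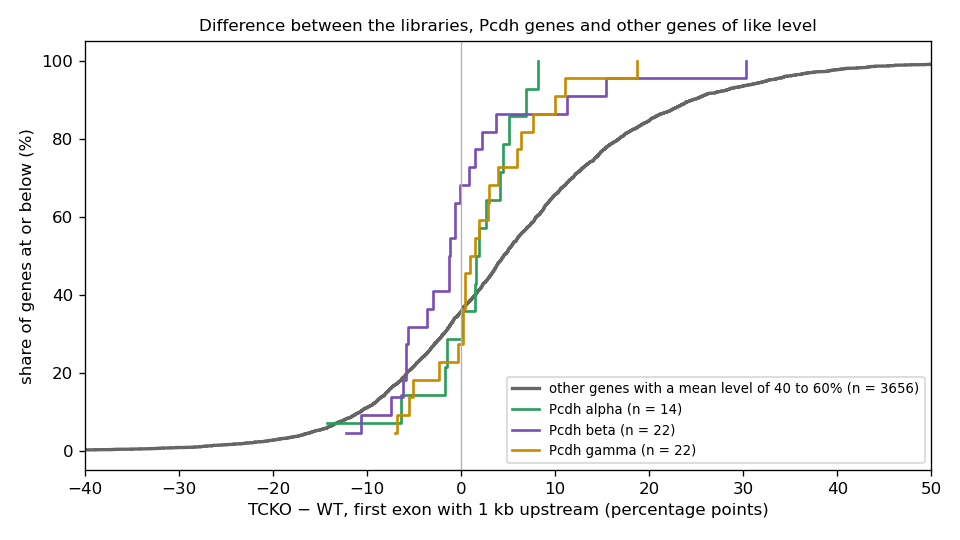
Cumulative share of genes (%) against the difference in level, TCKO minus WT in percentage points, for the alpha, beta and gamma genes and for 3656 other genes with a mean level of 40% to 60%. The curves of the 3 sets are steeper and lie closer to 0 than that of the other genes, whose median difference is 4.53 points. The other genes had fewer calls, with medians of 151 in WT and 122 in TCKO against 787.5 and 660 for the members. Fewer calls widen the spread of differences, and the part of depth in the steepness was not tested. The beta curve crosses the middle below 0, at -1.21 points.

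The 14 alpha genes had a median level of 47.9% in WT and 47.0% in TCKO. In TCKO 10 of them were higher, and the median difference was 1.76 points. Pooled over their windows, which counts each cytosine once, 11592 calls gave 46.4% in WT (interval 45.5 to 47.3%) and 9994 calls gave 47.2% in TCKO (46.3 to 48.2%). These intervals overlap. The levels in WT were highest in Pcdha6 (58.6%), Pcdha8 (57.4%) and Pcdha9 (52.6%), and lowest in Pcdhac1 (30.0%), Pcdhac2 (32.5%) and Pcdha12 (32.5%), the last 3 genes of the set in order along the chromosome. Pcdha1, which opens the cluster, was at 48.8% in WT and 47.0% in TCKO. Of the 14 alpha genes 1 was called higher (7.14%) and 1 lower, where 17.7% and 2.31% of all genes tested were. Pcdha10 was at 50.5% in WT and 58.7% in TCKO (difference 8.19 points, 95% interval 2.79 to 13.5, adjusted p = 0.0208, Fisher's exact test), and cytosine by cytosine it differed by 8.48 points.

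Pcdha6 fell in TCKO. It was at 58.6% over 949 calls in WT and at 44.3% over 865 calls in TCKO, a difference of -14.3 points (95% interval -18.8 to -9.72, adjusted p = 6.55e-08, Fisher's exact test). The lower level was seen in each of the 7 steps of 500 bp from 1 kb upstream to 2.5 kb into the exon. From 500 to 999 bp after the start it was 72.8% in WT and 53.5% in TCKO, and from 2000 to 2499 bp it was 79.7% and 57.4%. Cytosine by cytosine the difference was -10.3 points (adjusted p = 1.50e-05, exact stratified test). Of all genes tested, 2.33% had a difference as low. Pcdha3 was at 41.7% and 41.8% with pooled calls, but the cytosine by cytosine comparison gave a difference of -8.44 points (adjusted p = 0.00878, exact stratified test).

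The 22 beta genes had a median level of 52.1% in WT and 50.9% in TCKO. In TCKO 15 of them were lower. Pooled over their windows the level was 53.4% (52.6 to 54.1%, 16857 calls) in WT and 52.2% (51.4 to 53.0%, 14554 calls) in TCKO. Windows of 3 pairs of beta genes overlap (Pcdhb17 with Pcdhb18, Pcdhb19 with Pcdhb20, Pcdhb21 with Pcdhb22), and 0.523% of the cytosines in member windows lie in 2 windows. By test 3 of the 22 beta genes were called higher (13.6%) and 4 lower, where 17.7% and 2.31% of all genes tested were. Pcdhb1, the first of the set, was at 50.5% and 50.4%. The highest levels in WT were those of Pcdhb22 (68.4%), Pcdhb6 (64.8%) and Pcdhb16 (61.3%).

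Beta genes that were lower in TCKO were Pcdhb10, Pcdhb11, Pcdhb19 and Pcdhb22. Pcdhb10 was at 53.9% in WT and 41.6% in TCKO (adjusted p = 0.00481, Fisher's exact test). Its difference of -12.3 points shrank to -4.76 points when calls were compared cytosine by cytosine, and its call was lost (adjusted p = 0.523, exact stratified test). Pcdhb11 was at 59.9% and 49.2%, a difference of -10.7 points, or -8.33 points cytosine by cytosine. Pcdhb22, the last beta gene, was at 68.4% over 1910 calls and 60.9% over 1326 calls, a difference of -7.52 points, or -4.89 points cytosine by cytosine. Both of these stayed called in that comparison (adjusted p = 0.0377 and 0.0136, exact stratified test). Pcdhb19 was at 57.3% and 51.4%, and its call was lost there (adjusted p = 0.349, exact stratified test).

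Beta genes that were higher in TCKO were Pcdhb4, Pcdhb5 and Pcdhb8, which lie near each other in the cluster and had the lowest 3 levels of all beta genes in WT. Pcdhb8 moved most of the 58 genes with calls pooled over the whole window, while within 500 bp of the start and in the 1 kb upstream Pcdhgc5 moved more. It was at 29.8% over 449 calls in WT and at 60.2% over 550 calls in TCKO, a difference of 30.3 points (95% interval 24.3 to 36.0, adjusted p = 2.88e-19, Fisher's exact test). Pcdhb5 was at 32.7% and 48.1%, a difference of 15.4 points (adjusted p = 9.85e-05, Fisher's exact test). Pcdhb4 was at 43.8% and 55.1%, a difference of 11.2 points (adjusted p = 0.00233, Fisher's exact test).

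The calls of WT and TCKO at these beta genes came in part from different cytosines. Pcdhb8 had 6, 3 and 2 calls in WT in the steps of 500 bp from 500 to 1999 bp after its start, and 20, 33 and 12 in TCKO, where its levels were 85.0%, 75.8% and 41.7%. Over cytosines covered in both libraries the difference of Pcdhb8 was 13.3 points (adjusted p = 0.000429, exact stratified test). The difference of Pcdhb5 was 6.93 points and its call was lost (adjusted p = 0.118, exact stratified test), while Pcdhb4 stayed called with 9.25 points (adjusted p = 0.0104, exact stratified test). From Pcdhb4 to Pcdhb9, 5 of 6 genes had more calls in TCKO than in WT, with a median ratio of 1.21, against 1 of the 16 other beta genes, with a median ratio of 0.809, and 23.6% of the other genes tested. The part of this unequal depth in the pooled differences was not tested beyond the cytosine by cytosine values.

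The 22 gamma genes had a median level of 50.6% in WT and 52.3% in TCKO. In TCKO 16 of them were higher. Pooled over their windows the level was 48.8% (48.0 to 49.5%, 17945 calls) in WT and 49.9% (49.1 to 50.7%, 14741 calls) in TCKO. By test 5 of the 22 gamma genes were called higher (22.7%) and 0 lower, where 17.7% and 2.31% of all genes tested were. The gamma A and gamma B genes, which alternate along the cluster and differ in sequence, lay close together in WT, with medians of 50.8% over 12 genes and 49.5% over 7 genes. Of the 12 gamma A genes 4 were called higher and of the 7 gamma B genes 0, where 17.7% of all genes tested were, and the difference between the groups was not tested. All 7 gamma B genes lay between 47.8% and 57.9% in WT.

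Among the gamma A genes Pcdhga1, the first of the set, was at 46.8% in WT and 57.8% in TCKO (difference 11.0 points, 95% interval 4.43 to 17.4, adjusted p = 0.00969, Fisher's exact test). Pcdhga6 was at 50.6% and 60.5% (adjusted p = 0.00299, Fisher's exact test). Pcdhga10 was at 42.5% and 50.2%, and Pcdhga11 at 40.9% and 46.8%, with adjusted p of 0.00844 and 0.0447 by Fisher's exact test. None of these 4 calls held cytosine by cytosine, where the differences were 4.38 to 5.85 points and the adjusted p 0.121 to 0.242 by the exact stratified test. Pcdhga2, at 65.2% in WT, Pcdhga3, at 59.1%, and Pcdhgb2, at 57.9%, had the highest levels in WT and were not called. Pcdhga7 was at 50.7% in WT and 43.6% in TCKO (adjusted p = 0.130, Fisher's exact test), the lowest difference of the gamma A genes. Of the genes not called with pooled calls, Pcdhga2, Pcdhga3 and Pcdhgb1 were called cytosine by cytosine, the first with a difference of -8.99 points and Pcdhga3 with 6.29 points (adjusted p = 0.0109 and 0.0174, exact stratified test). Pcdhgb1 was higher in TCKO (adjusted p = 0.00327, exact stratified test).

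Of the 5 C-type genes, 4 had lower levels in WT than any alternate gene of their set, although the intervals of Pcdhac1 and Pcdhac2 overlapped that of Pcdha12. The median level of the 5 was 32.5% in WT and 26.2% in TCKO, but 3 of them were higher in TCKO and their median difference was 1.45 points. Their order in WT was Pcdhgc3 (4.55%), Pcdhac1 (30.0%), Pcdhac2 (32.5%), Pcdhgc4 (33.1%) and Pcdhgc5 (54.5%). The intervals of Pcdhac1 (26.2 to 34.1%), Pcdhac2 (28.3 to 36.9%) and Pcdhgc4 (29.0 to 37.3%) overlapped, and those of Pcdhgc3 (3.16 to 6.49%) and Pcdhgc5 (49.0 to 59.8%) overlapped no other C-type gene. In TCKO the levels were 6.00%, 36.9%, 26.0%, 26.2% and 73.2%. Pcdhgc5 alone of the 5 was called, and the adjusted p of the others ran from 0.123 to 0.513 by Fisher's exact test. Within 500 bp of the start Pcdhgc3 was at 0.429% in WT and 0.388% in TCKO, Pcdhac2 at 2.21% and 0.893%, Pcdhgc4 at 1.91% and 1.15%, and Pcdhac1 at 8.76% and 17.4%. For Pcdhac2 WT had 0 calls from 500 to 999 bp after the start, where TCKO had 102 calls, 0% of them methylated (interval up to 3.63%), and its pooled difference of -6.42 points became -0.759 points cytosine by cytosine. In that comparison Pcdhac1 turned from 6.86 to -6.12 points and Pcdhgc4 from -6.88 to 0.216 points, so that these pooled levels gave no steady direction.

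Pcdhgc3 was unmethylated over a long stretch. In the first 500 bp of the exon the level was 0% over 89 calls in WT (interval up to 4.14%) and 0% over 142 calls in TCKO (up to 2.63%), and in the next 500 bp 0% over 89 and 63 calls. From 1000 to 1499 bp it was 1.64% and 1.89%. Upstream it was 19.4% and 24.8% from 1000 to 501 bp before the start.

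Pcdhgc5, the last gene of the gamma cluster, gained methylation at its promoter. Its window was at 54.5% over 323 calls in WT and at 73.2% over 261 calls in TCKO, a difference of 18.7 points (95% interval 10.9 to 26.1, adjusted p = 6.75e-05, Fisher's exact test). Within 500 bp of the start the level was 5.75% over 87 calls in WT and 69.4% over 49 calls in TCKO (adjusted p = 7.21e-13, Fisher's exact test). In the 500 bp upstream it was 0% over 39 calls (interval up to 8.97%) and 56.3% over 16 calls (33.2 to 76.9%), and in the first 500 bp of the exon 10.4% over 48 calls and 75.8% over 33 calls. Further into the exon, from 500 to 2499 bp, the intervals of the libraries overlapped in each step of 500 bp. Cytosine by cytosine the whole window differed by 13.3 points (adjusted p = 0.0106, exact stratified test).

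**Figure D3:**
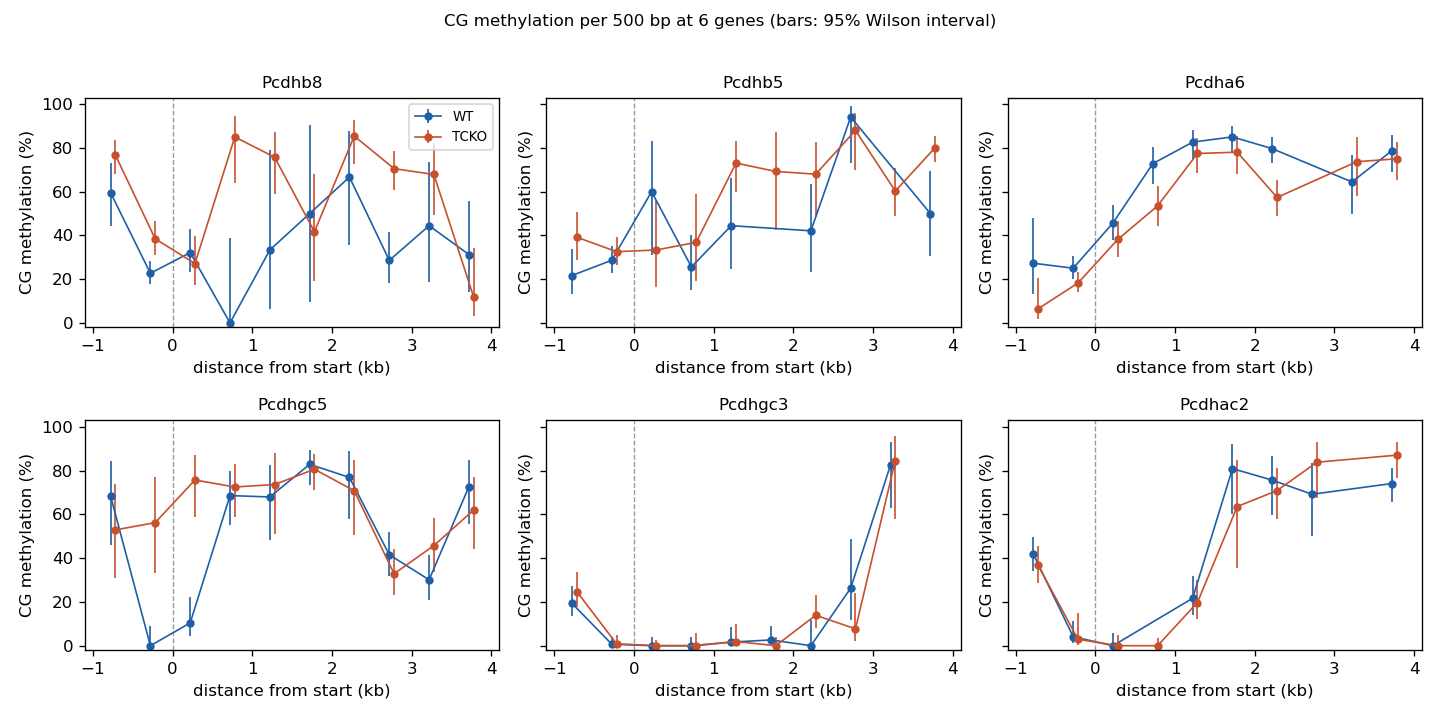
CG methylation level (%) per 500 bp against the distance from the annotated start (kb) at Pcdhb8, Pcdhb5, Pcdha6, Pcdhgc5, Pcdhgc3 and Pcdhac2 in WT (blue) and TCKO (orange), with 95% Wilson intervals and with steps that have no call left out. At Pcdhgc5 the libraries part only around the start, where WT is at 0% and 10.4% and TCKO at 56.3% and 75.8%. Pcdha6 is lower in TCKO along the exon, and Pcdhgc3 is at 0% in both from the start to 1 kb.

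Around the annotated start the level dipped in all sets and in both libraries. In the 250 bp before the start it was 26.5% in WT and 28.9% in TCKO over the 12 alternate alpha genes, 16.6% and 19.6% over the 22 beta genes and 18.6% and 21.6% over the 19 alternate gamma genes. The C-type genes stood lower there, at 1.50% over 200 calls in WT and 9.43% over 106 calls in TCKO. From 250 bp before to 50 bp after the start, 7 of 11 calls at Pcdhgc5 were methylated in TCKO, and 1 of 8 at Pcdhac1, 1 of 34 at Pcdhac2, 0 of 83 at Pcdhgc3 and 1 of 34 at Pcdhgc4. From 1000 to 1249 bp after the start, inside the exon, the levels were 65.1% and 62.2% in the alpha genes, 65.2% and 63.7% in the beta genes and 66.2% and 66.6% in the gamma genes. The dip was narrow at the beta genes, which were back at 60.4% in WT from 500 to 749 bp, and wider at the alternate alpha genes, which were at 33.2% there. Upstream, 1000 to 751 bp before the start, the level was 59.7%, 54.4% and 78.5% in WT for alpha, beta and gamma. With calls pooled over the alternate genes, the level was thus lower just before the start than 1000 to 1249 bp into the exon in both libraries. Over the whole first exon the median of the alternate genes was 51.9% in WT and 54.3% in TCKO.

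**Figure D4:**
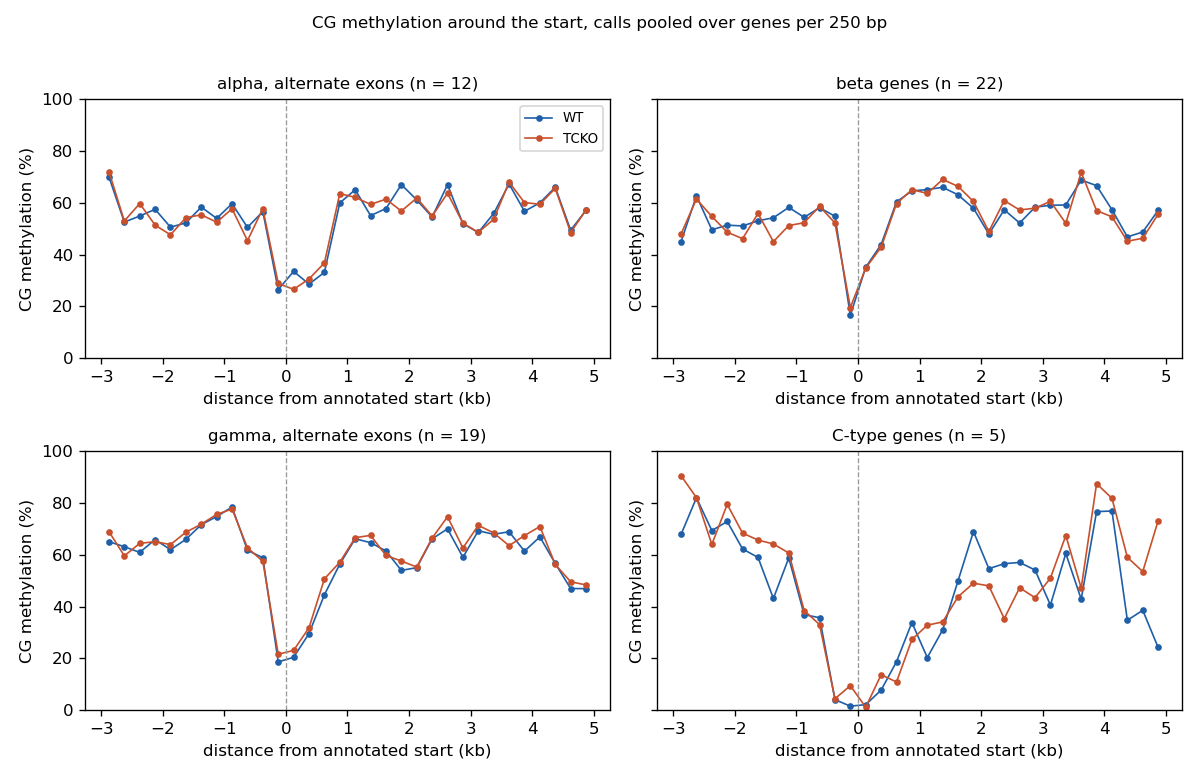
CG methylation level (%) in steps of 250 bp against the distance from the annotated start (kb), calls pooled over 12 alternate alpha genes, 22 beta genes, 19 alternate gamma genes and 5 C-type genes, in WT (blue) and TCKO (orange). Each set dips at the start, to 16.6% in the beta genes of WT, and the curves of the libraries keep a like shape in the alternate genes, with single steps apart, as in the alpha genes from 0 to 249 bp (33.5% in WT and 26.6% in TCKO).

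Promoters of alternate protocadherins carry a conserved element with CGCT at its core. These 4 letters were found on either strand from 250 bp before to 50 bp after the start in 56 of 58 genes (96.6%), and in 61.8% of 32851 RefSeq promoter windows of the same length (GRCm38). On the strand of the gene they were found in 51 genes (87.9%), and in 45.5% of those windows. The match is a description and not a binding site. CG cytosines within CGCT were at 15.3% in WT and 14.7% in TCKO in the alternate alpha genes, where all calls of the same stretch gave 28.9% and 29.0%. In the beta genes they were at 11.3% and 13.8%, against 20.7% and 22.1% for the stretch, and in the alternate gamma genes at 14.9% and 14.8%, against 18.8% and 21.4%. The calls of the stretch include those of CGCT, so a part is set beside the whole. The intervals of CGCT and of the stretch did not overlap in the alpha and beta genes. In the gamma genes they overlapped in WT (12.1 to 18.1% and 17.1 to 20.7%) and did not in TCKO. Pcdhb22 and Pcdhga12 held no CGCT and no call there, since their annotated starts lie in stretches with few CG.

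Levels near 50% can arise from cytosines that are each partly methylated or from a mixture of full and empty ones. Among cytosines with at least 8 calls in the windows of the alternate genes, 63.4% of 309 in the alpha set, 57.7% of 646 in the beta set and 54.8% of 553 in the gamma set lay between 20% and 80% in WT. Over the genome 49.0% did. In TCKO the shares were 56.7%, 64.3% and 60.6%, against 39.5% over the genome. Cytosines at or above 80% made up 15.5%, 25.1% and 23.5% in WT and 18.9%, 16.1% and 22.7% in TCKO, whereas over the genome their share was 45.8% in WT and 57.6% in TCKO. With the C-type genes, the alpha, beta and gamma windows hold 3575, 3974 and 5069 CG cytosines. Most were thus left out by the minimum of 8 calls, and the shares describe the deepest ones only.

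The order of the genes by level was partly kept between the libraries. Across the 58 genes Pearson's r between the WT and TCKO levels was 0.750 and Spearman's rho 0.639, and across the 53 alternate genes they were 0.531 and 0.560. The points share libraries, cluster and depth, and the values are given as a description. Across the 58 genes the differences on the plus strand and on the minus strand had an r of 0.629, and all 14 called genes had the same sign on both strands. The 14 were called on the sum of both strands, so their agreement was in part fixed by that choice and is no separate support.

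Outside the first exon windows the clusters were more methylated, except at the constant exons of the gamma set, which were less methylated. Over the alpha cluster without first exon windows and constant exons the level was 61.5% in WT and 61.6% in TCKO. In the beta cluster it was 58.2% and 55.9%, a difference of -2.30 points with intervals that did not overlap. In the gamma cluster it was 71.0% and 74.2%, a difference of 3.15 points with intervals that did not overlap. In this part of the beta cluster TCKO had more calls than WT (11683 against 10624), unlike in the alpha and gamma clusters. The comparison cytosine by cytosine was not made for these regions, and the part of unequal depth was not tested. The shared constant exons of the alpha set were at 59.0% (54.7 to 63.2%) and 63.5% (58.9 to 67.9%), and those of the gamma set at 23.2% (18.2 to 29.2%) and 32.2% (26.2 to 38.9%).

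The flanks of the clusters differed from each other. In the 100 kb before the alpha cluster the level was 70.9% in WT and 67.2% in TCKO, and between the beta and gamma clusters it was 62.2% and 59.4%. Between the alpha and beta clusters it was 56.8% and 56.7%. In the 100 kb after the gamma cluster it was 69.2% and 78.2%, a gain of 9.01 points, above the 7.01 points of chromosome 18 as a whole. The length of these flanks was chosen after the values had been seen. The windows of 13 neighbouring genes had a median difference of 2.76 points. Of these genes 1 (Hars2) was called higher (7.69%, against 17.7% of all genes tested).

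**Figure D5:**
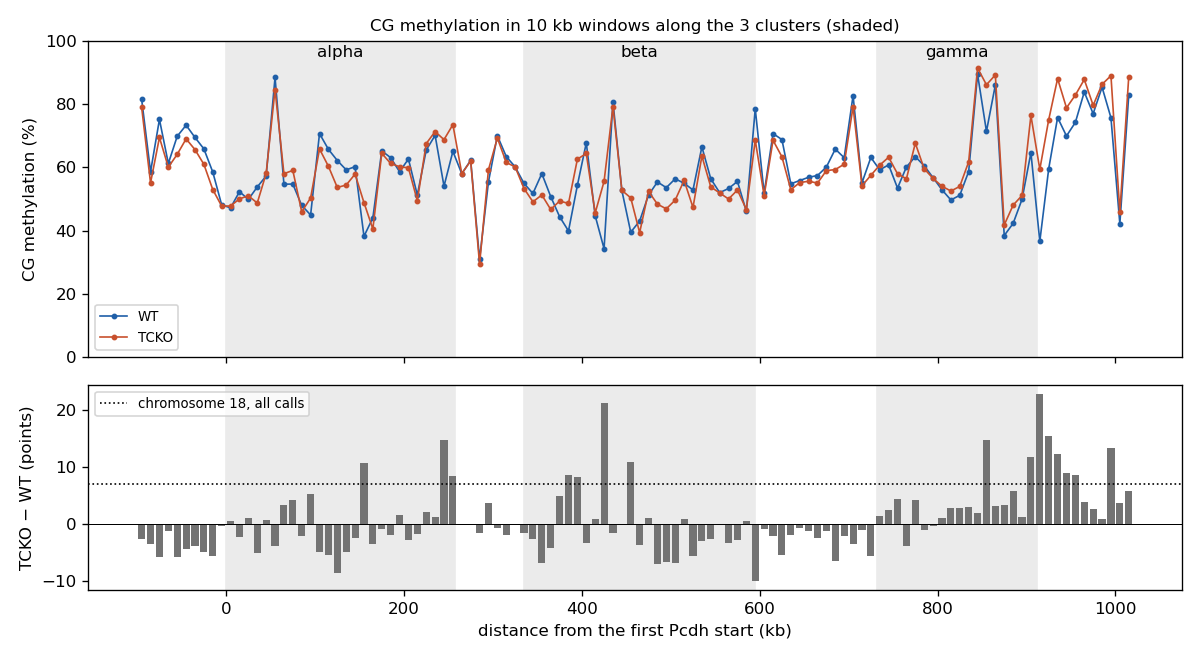
CG methylation level (%, above) and its difference, TCKO minus WT (percentage points, below), in windows of 10 kb along the alpha, beta and gamma clusters (shaded), against the distance from the first Pcdh start (kb). The dotted line marks the 7.01 points of chromosome 18. The bars stay mostly below it from before the alpha cluster to the end of the gamma cluster, reach 21.3 points at the Pcdhb8 stretch, and lie on both sides of it after the gamma cluster.

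Differentially methylated regions were counted as well, with the bin size and minimum difference of the study. Bins of 200 bp had to differ by more than 40 percentage points, here with an adjusted p below 0.05 by Fisher's exact test. Of 749 testable bins in the 3 clusters 10 were hypermethylated in TCKO (1.34%), against 2.86% of 2534629 bins of the genome, and 0 were hypomethylated, against 0.035%. Only adjacent bins were joined, which made 9 hyper-CG-DMRs of these 10 bins. Over the genome the same steps gave 63005 hyper- and 882 hypo-CG-DMRs. Both totals are below those of the study, so the counts here are not counts of its regions. Of the 287 bins centred in member windows 1 was hypermethylated, and of the 462 other bins of the clusters 9 were. Depth in the member windows was 3.24, 4.24 and 3.54 calls per CG cytosine in WT (alpha, beta and gamma). In TCKO it was 2.80, 3.66 and 2.91. Only the deeper bins of the windows were thus tested, and a window without a hyper-CG-DMR, as at Pcdhgc5, need not be unchanged. At Pcdhb8 there were 2 hyper-CG-DMRs. That in its first exon, 2629 bp from the start, was at 23.1% in WT and 72.9% in TCKO, and that 4029 bp from the start was at 0% over 27 calls (interval up to 12.5%) and 68.4% over 38 calls. A region at -2681 bp from the start of Pcdhb5 was at 0% over 35 calls in WT (interval up to 9.89%), while its interval in TCKO ran from 46.2 to 72.4% over 50 calls, and another lay upstream of Pcdhb9. In the alpha cluster 3 hyper-CG-DMRs lay after the start of Pcdhac2, and the strongest of them was at 10.2% and 76.0%, a difference of 65.8 points. In the gamma cluster 2 lay at -19010 and -19510 bp from the start of Pcdhgc3, the nearer at 22.7% and 73.2% and the other at 38.7% and 93.0%.

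Other protocadherins and the factors that act on the clusters were read by the same windows. Of 12 non-clustered protocadherins, which are single genes with promoters of the usual kind, 2 were called higher (16.7%, against 17.7% of all genes tested) and 0 lower. Pcdh9 was at 65.5% in WT and 79.9% in TCKO, and Pcdh12 at 50.7% and 65.4%. Their median level in WT was 7.71%. Of 12 regulators of the clusters (Ctcf, Rad21, Smc1a, Smc3, Nipbl, Wapl, Smchd1, Dnmt1, Dnmt3a, Dnmt3b, Setdb1 and Rest), 2 were called higher (16.7%) and 1 lower. Dnmt3b, which encodes the de novo methyltransferase of the alternate promoters, was at 28.1% over 249 calls in WT and 67.0% over 97 calls in TCKO (adjusted p = 4.54e-09, Fisher's exact test). Its first exon, at 0.926% in WT, had no call in TCKO, and the 1 kb upstream alone was at 48.9% and 67.0%, so that much of the gap lay between different cytosines. Wapl, a factor that releases cohesin, was at 1.91% and 7.86%, and Dnmt3a at 13.8% over 29 calls and 0% over 104 calls (interval up to 3.56%), with no WT call in its first exon.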

How the data were processed

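Whole-genome bisulfite reads of primary osteoblasts (1 WT and 1 TCKO library) had been aligned by the authors with BSMAP 2.74 (CASAVA is also named in the submitters' processing notes), and the deposited files held raw counts for each CG cytosine on either strand: how many calls were made there and how many of them were methylated. All positions lay on CG of GRCm38. No other per-sample columns were used, and removal of duplicate reads is not described in the sources used here. Libraries were assigned by the genotype in their labels.

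Calls were pooled over the first exon of each gene's principal transcript (GENCODE M21) with 1000 bp upstream, and 21303 windows with at least 20 calls in each library were compared by the 2-sided Fisher's exact test with Benjamini-Hochberg adjustment (adjusted p below 0.05). Python 3.11.15, numpy 2.4.6, scipy 1.17.1 and numba 0.67.0 were used, and the tests were checked on simulated data. The simulated calls were independent, so the check does not cover several calls from 1 read or the spread between animals. GENCODE M21 names 2 genes Pcdha11, and 1 of them was taken as Pcdha10 after RefSeq. Pcdhgb8, a polymorphic pseudogene, was kept. A 200 bp bin was testable with 4 or more CG cytosines whose mean depth reached 4 reads. Named were the C-type genes, the genes at the borders of the sets and, in each set, the 3 with the highest and lowest WT level and the 3 with the largest gain and the largest loss, among those with at least 100 calls. The other genes called were named after their values were seen. Members and lists were chosen with earlier results of these data known. Alternatives covered averaging, coverage, strand, window, first exon choice and thinning, and the comparison cytosine by cytosine was added after seeing the data. It combines the cytosines covered in both libraries (Mantel-Haenszel difference, exact conditional test stratified by cytosine).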

Additional observations from a re-analysis of the deposited data

How the results depend on the processing

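Of the 14 calls, 7 held cytosine by cytosine, 4 held with 1 cytosine per 150 bp and strand, and 3 held in both (Pcdha6, Pcdhb8 and Pcdhgc5). Cytosine by cytosine 6 members were called higher and 5 lower, 4 of them not called with pooled calls. Calls higher (9) became 1 with sites of at least 4 calls in each library, 3 with minus-strand cytosines, 2 with the 1 kb upstream, 5 with the first exon, 3 within 500 bp of the start, 3 with 1 cytosine per 150 bp and strand, and 1 with at least 20 points. Calls lower (5) became 2 with sites of at least 4 calls, 2 with plus-strand cytosines, 1 with the 1 kb upstream, 2 with the first exon, 1 within 500 bp, 1 with 1 cytosine per 150 bp, and 0 with at least 20 points. The causes were not tested. The setting of at least 20 points uses the same calls with a minimum difference, and the others use fewer calls. Shares over all genes are given above for the upstream, first exon, 500 bp and 20 point settings. For sites of at least 4 calls, single strands and 1 cytosine per 150 bp no such share is given. Those counts cannot be read as a result about the members. Median levels moved with the window. The 1 kb upstream gave 34.5% in WT and 41.1% in TCKO for alpha, 40.7% and 42.0% for beta, 47.2% in WT for gamma and 22.4% in WT for the C-type genes. Within 500 bp of the start they were 30.5% and 29.9% for alpha, 37.4% and 35.2% for beta, 27.6% and 34.3% for gamma, and 2.21% and 1.15% for the C-type genes. Sites of at least 4 calls gave 56.1% for gamma in TCKO and 37.4% and 34.4% for the C-type genes. Plus-strand cytosines gave 46.4% for gamma and 27.9% for the C-type genes in WT. Minus-strand cytosines gave 55.3% for gamma in WT and 38.0% and 37.0% for the C-type genes. The first exon gave 32.8% for the C-type genes in TCKO, and 1 cytosine per 150 bp 43.1% and 45.9%. Hyper-CG-DMRs (9) became 2 above 60 points, 14 with a mean of at least 1 read and 1 with at least 10. Hypo-CG-DMRs (0) became 3 above 20 points and 1 with a mean of at least 1 read. The mean of site levels gives no test and so no count of calls. No paired analysis was possible because there was 1 library per genotype, and for the same reason no replicate could be left out.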

Other observations

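The first exon windows had 3.24, 4.24 and 3.54 calls per CG cytosine in WT for alpha, beta and gamma, and 2.80, 3.66 and 2.91 in TCKO, against 5.97 and 5.11 over all CG cytosines of the reference. The C-type genes had medians of 1.90 (WT) and 1.67 (TCKO). The median gene had 3.69 calls per CG cytosine in WT and 3.20 in TCKO, against 2.52 and 2.04 over all genes tested, and the lowest value in WT was 1.26, at Pcdhb9.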
